A study of Homo sapiens with 12 samples.

Results

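The genes described are those of the cytosolic ribosomal proteins. They were taken by name: every probe set whose only gene symbol is RPL or RPS with a number, RPLP0, RPLP1, RPLP2 or RPSA, with an optional A, X or L ending. S6 kinase genes, pseudogenes and antisense RNAs were left out. The rule found 57 genes with 118 probe sets, of the 19775 genes and 54675 probe sets of the table. Of these genes 21 encode proteins of the small subunit and 36 proteins of the large subunit, and all 57 symbols are protein-coding genes in RefSeq. Where a gene had several probe sets, the one with the highest mean over the 12 arrays stood for it. Ribosomal protein genes that share all their probe sets with another symbol, among them RPL5, RPL10, RPL23, RPL13A, RPS27A, RPSA and RPLP0, were not analysed here as single genes.

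The cells were CCRF-CEM-C7H2, a glucocorticoid-sensitive human T-cell acute lymphoblastic leukaemia (T-ALL) line. Dexamethasone, a synthetic glucocorticoid, was given at 100 nM for 6 h or 24 h. The matching controls received 0.1% ethanol, the carrier, for 6 h or 24 h. Each of the 4 groups held 3 Affymetrix HG-U133 Plus 2.0 arrays from independent experiments, numbered 0, 1 and 3 at 6 h and 1, 2 and 3 at 24 h, so p-values measure the spread between experiments in 1 cell line.

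Ribosomal proteins are made in near-equal numbers in the cytoplasm, imported into the nucleolus and built onto ribosomal RNA. Their messenger RNAs are among the most abundant of any growing cell. Nearly all of them begin with a C inside an unbroken run of C and T (U in the RNA). This 5′ terminal oligopyrimidine (TOP) start lets the kinase mTOR, acting through the RNA-binding protein LARP1, hold back or release their translation, while the transcription factor MYC raises their transcription. In T-ALL, RPL5, RPL10 and RPL22 are recurrent targets of mutation or deletion, and RPL5 and RPL11 bind the ubiquitin ligase MDM2.

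The start sites are shown for 5 of the 6 members that changed at 24 h (not RPL39L), for the relatives RPL36AL, RPS27 and RPL39, and for RPL10L as a further paralog. In the annotation used, the TOP start is a feature of most members but not of all (34 of 49 with an entry). Each line gives 10 bases before and 20 bases from the RefSeq start site (GRCh38.p14), 5′ to 3′ on the gene's strand. Capitals mark the C and T run that begins at the start site.
RPLP1, chr15:69452808-69452837, plus strand: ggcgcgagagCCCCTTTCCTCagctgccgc
RPL36A, chrX:101391001-101391030, plus strand: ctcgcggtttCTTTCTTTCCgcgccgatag
RPL36AL, chr14:49620607-49620636, minus strand: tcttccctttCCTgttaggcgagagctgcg
RPL36, chr19:5690285-5690314, plus strand: cggcgccagcCCTTCCgccacggccgtctc
RPL35, chr9:124861938-124861967, minus strand: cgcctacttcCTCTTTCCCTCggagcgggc
RPS27, chr1:153990752-153990781, plus strand: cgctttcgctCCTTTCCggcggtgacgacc
RPS27L, chr15:63157458-63157487, minus strand: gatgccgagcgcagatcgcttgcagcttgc
RPL39, chrX:119791611-119791640, minus strand: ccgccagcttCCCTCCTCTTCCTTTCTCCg
RPL10L, chr14:46651762-46651791, minus strand: gtagttaagagagcgcattttgacttcgag
RPS27L and RPL10L do not start with a C in this annotation, whereas RPS27 opens with CCTTTCC and RPL39 has the longest run of all members, 19 bases. The run of RPL36AL, 3 bases, is too short to count as a TOP start by the rule below.

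Of the 57 members, 49 had a promoter entry, and 34 of these (69.4%) began with a C followed by at least 4 further C or T. The same holds for 988 of 15843 protein-coding genes with an entry (6.24%). It also holds for 9 of 9 with an entry among 15 other genes listed as TOP messenger RNAs, a list that presumes this start. The median run of the 34 was 8 bases. In the 300-base entries, 250 bases before and 50 after the start, the ETS core CCGGAAG was present on either strand in 36.7% of the members, against 16.5% of all protein-coding promoters. AAGATGGC, a YY1 core, was found in 8.16% of the members and 4.66% of all. The E-box CACGTG was found in 6.12% of the members and 10.9% of all, and TATAAA in 8.16% of the members and 12.4% of all. These letter matches are descriptions of the windows, not measured binding.

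The labelled cells and treatment showed on the arrays. All 8 T-lineage genes listed, among them CD3D, CD7 and LCK, were measured, with log2 values between 6.98 and 14.36. The myeloid, erythroid and most B-cell and stromal markers stayed at or below 3.41 on every array. The exceptions were CD79A (9.78 to 11.80) and COL1A1 (5.62 to 6.55). CD79A averaged 11.72 on dexamethasone arrays and 10.17 on ethanol arrays at 24 h, and its part in the results below was not tested. NR3C1, the glucocorticoid receptor, averaged 14.08 with dexamethasone and 12.14 with ethanol at 6 h, and 14.04 with dexamethasone and 12.08 with ethanol at 24 h. FKBP5, a target gene whose product restrains the receptor, averaged 13.82 against 11.25 at 6 h and 14.46 against 11.34 at 24 h. On each array 41.2 to 42% of the probe sets, or 22503 to 22941, were at a log2 of 4 or more.

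All values below are log2 expression values per probe set, as the authors deposited them, and a difference of 1 is a doubling. A gene was tested if its probe set reached a log2 of 4 on at least 3 of the 12 arrays, and 56 of the 57 members were. The member below the filter was RPL3L, a heart and skeletal muscle paralog of RPL3, at 2.22 to 2.28 on all arrays. RPL3 itself, which lies near the peptidyl transferase centre, read 14.02 to 14.16 with dexamethasone and 14.06 to 14.22 with ethanol at 24 h.

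Most members read close to the top of the array's scale. Their mean was at least 14 for 47 members and at least 15 for 27 of them, while the highest value of any probe set on an array lay between 15.89 and 16.22. The brightest members were RPLP1, an acidic protein of the stalk that recruits translation factors (mean 15.91), RPL41, the smallest ribosomal protein (15.68), and RPS23, which lies in the decoding region (15.68). Probe sets differ in how strongly they bind, so these readings do not rank the amounts of the messengers. The dimmest measured members were RPLP2, the partner of RPLP1 in the stalk (4.57), and RPL10L, a testis paralog of RPL10 (4.46). What the RPLP2 probe set binds was not tested.

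The members' values were tightly repeated. The median SD around the group means was 0.034 for the members, against 0.135 for all 9947 genes tested and 0.0742 for all genes with a mean of at least 12. The median of the members on an array lay between 14.85 and 14.97 on the 6 dexamethasone arrays, and between 14.89 and 14.99 on the 6 ethanol arrays.

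After 6 h of dexamethasone none of the 56 members passed the test (adjusted p under 0.05 in limma over all 23265 probe sets), where 6.49% of all genes tested did. At an unadjusted p under 0.05 in limma there were 2 members, both lower with dexamethasone, beside 2095 of the 9947 genes tested. The lowest adjusted p of a member was 0.148. The differences ranged from -0.31 to 0.07 with a median of -0.01, beside a median of 0 for all genes. For 53 of the 56 the 95% interval of the difference lay within 0.3 of 0 on either side. The arrays of the 2 groups did not overlap for 15 members (26.8%), against 25.4% of all genes tested.

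The lowest difference at 6 h was that of RPLP2. It read 4.59, 4.45 and 4.48 with dexamethasone and 4.81, 5.00 and 4.65 with ethanol. The groups did not overlap, but the adjusted p was 0.148. A second, dimmer probe set of RPLP2 did pass at 6 h. It read 3.93, 3.88 and 3.86 with dexamethasone, below the log2 of 4 used as the filter, and 4.51, 4.44 and 5.08 with ethanol (-0.78 ± 0.149, adjusted p = 0.012). Of these 6 arrays only the ethanol ones reached that filter level. The mean of both probe sets (-0.55, adjusted p = 0.00262) holds the same values and is no separate support. RPS6, the small-subunit protein that S6 kinases phosphorylate, read 14.84, 14.89 and 14.89 with dexamethasone and 15.02, 15.02 and 15.03 with ethanol. All 3 dexamethasone arrays lay below all 3 ethanol arrays, by 0.16 ± 0.0577 on average, with an adjusted p of 0.152 (± is limma's standard error throughout, n = 3 arrays per group). RPS6 passed without a filter (adjusted p = 0.00625) and with a variance trend (adjusted p = 0.00614). RPL24, which reaches across to the small subunit, read 14.87, 14.84 and 14.86 with dexamethasone and 14.98 on each ethanol array (adjusted p = 0.276). At 6 h the codes in the array names, read here as batches, put the dexamethasone arrays in 1 batch and the ethanol arrays in another. What the codes stand for is not stated. Batch, as read from them, and treatment cannot be told apart for any of these values.

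After 24 h of dexamethasone 6 of the 56 members passed the test (10.7%), where 52% of all genes tested did. RPL36A and RPLP1 were higher (2 members, against a background of 23.9% of genes higher), and RPL36, RPS27L, RPL39L and RPL35 were lower (4 members, against 28.1%). The other 50 did not pass. The differences ranged from -0.46 to 0.71, with a median of -0.03 beside -0.02 for all genes. The 95% interval lay within 0.3 of 0 for 48 of the 56. The 2 groups did not overlap for 30 members (53.6%), against 65.8% of all genes tested.

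**Figure D1:**
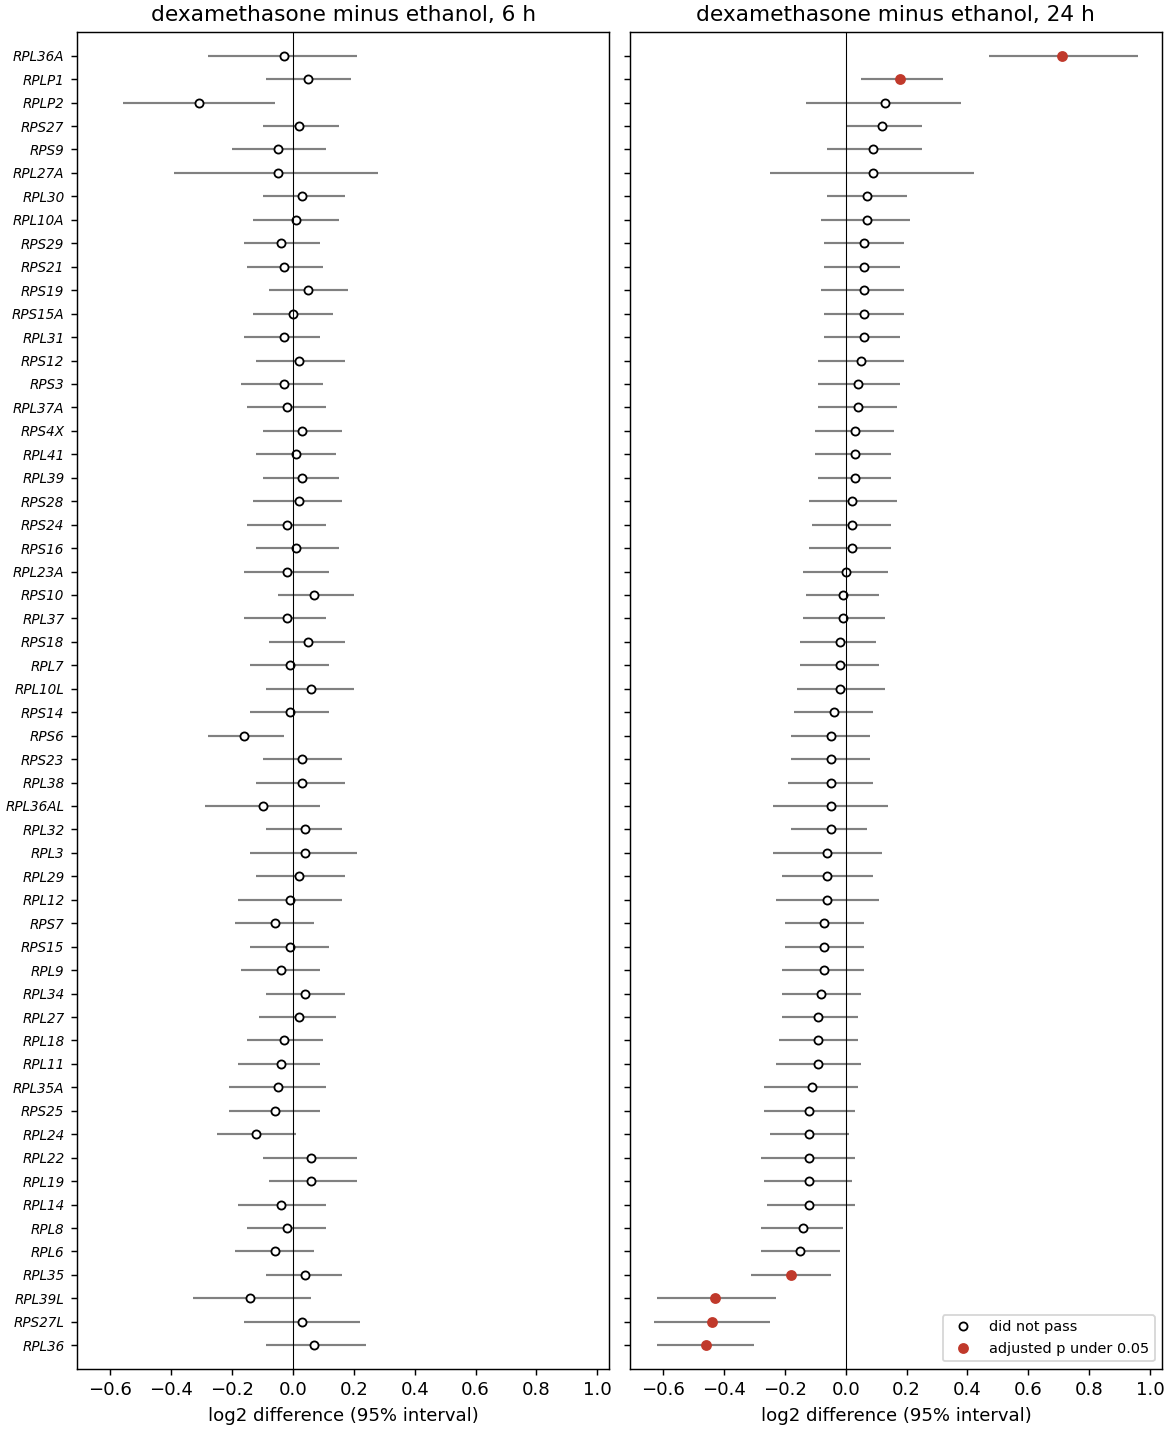
Log2 difference between dexamethasone and ethanol for the 56 tested ribosomal protein genes at 6 h (left) and 24 h (right), with 95% intervals from limma. Filled points passed an adjusted p under 0.05. No gene passed at 6 h, and at 24 h the 6 filled points lie at the ends of the order, from RPL36A at 0.71 to RPL36 at -0.46.

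The share of calls was also set against that of other genes of like brightness. Among members with a mean of at least 14, 2 of 47 passed at 24 h (4.26%). Among the other genes with a mean of at least 14, 42 of 95 did (44.2%). With a mean of at least 12 the counts were 3 of 50 members (6%) and 405 of 706 other genes (57.4%). These levels were chosen after the data had been seen, and the difference between the shares was not tested.

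**Figure D2:**
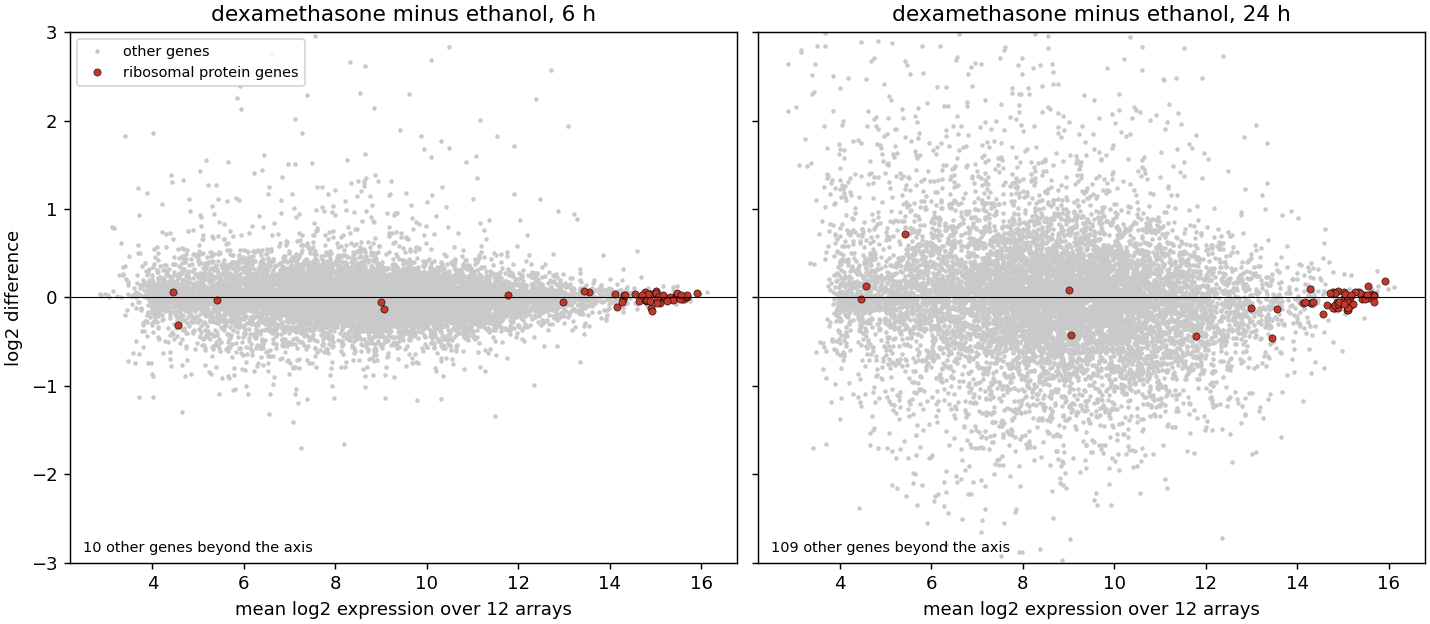
Log2 difference between dexamethasone and ethanol at 6 h (left) and 24 h (right) against the mean log2 expression over the 12 arrays, 1 point per gene. The ribosomal protein genes (red) gather near 0 at the bright end at both times, while other genes (grey) spread widely at 24 h. The number of other genes beyond the axis is written in each panel.

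The member that fell most was RPL36, a large-subunit protein. It read 13.12, 13.04 and 13.00 with dexamethasone at 24 h and 13.52, 13.41 and 13.61 with ethanol. Every dexamethasone array lay below every ethanol array, and the difference was -0.46 ± 0.0740 (0.726-fold, adjusted p = 0.000425). At 6 h the same probe set read 13.54, 13.68 and 13.65 with dexamethasone and 13.56, 13.53 and 13.56 with ethanol, groups that overlap.

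RPL35, which sits beside the exit of the peptide tunnel, read 14.40, 14.45 and 14.37 with dexamethasone at 24 h and 14.58, 14.57 and 14.62 with ethanol. The groups did not overlap, and the fall was small, -0.18 ± 0.0579 (0.882-fold, adjusted p = 0.0238). It did not pass when ethanol array 1 or 3 or dexamethasone array 1 or 3 was left out (adjusted p 0.0534 to 0.0749), in a fit to the 6 arrays of 24 h only (adjusted p = 0.0539), or after cyclic loess (-0.09, adjusted p = 0.21) or median centring (-0.16, adjusted p = 0.0765).

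RPLP1 read 16.02, 16.00 and 16.05 with dexamethasone at 24 h and 15.83, 15.87 and 15.81 with ethanol. It rose by 0.18 ± 0.0613 (1.14-fold, adjusted p = 0.0300), with no overlap between the groups, and was at -0.15 (adjusted p = 0.379) when the arrays were scaled to their poly-A spike controls, which moved the median of all genes to -0.36. It did not pass without ethanol array 1, 2 or 3 or without dexamethasone array 1 or 3 (adjusted p 0.0544 to 0.0858), or in the fit to the 6 arrays of 24 h (adjusted p = 0.0502). Its values lay at the upper end of what any probe set reached on these arrays.

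RPL36A, a large-subunit protein of the exit site for transfer RNA, rose most. Its probe set was dim, and read 5.90, 5.71 and 6.05 with dexamethasone at 24 h and 5.26, 5.00 and 5.25 with ethanol. The difference was 0.71 ± 0.111 (1.64-fold, adjusted p = 0.000332), and on the spike scale it was 0.38 (adjusted p = 0.0679). RPL36AL, a paralog from another chromosome whose protein is nearly identical, read 14.17, 14.05 and 14.20 with dexamethasone at 24 h and 14.13, 14.12 and 14.33 with ethanol (adjusted p = 0.647). Its groups overlap. Messengers of close paralogs can bind the same probes. Whether these do was not tested, so neither value can be assigned to 1 gene with certainty.

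The other called members were paralogs of core proteins, with their parent genes on the same arrays. RPS27L, a paralog of RPS27, read 11.31, 11.35 and 11.48 with dexamethasone at 24 h and 11.77, 11.82 and 11.86 with ethanol. It fell by 0.44 ± 0.0852 (0.739-fold, adjusted p = 0.00156) with no overlap. RPS27, its parent, read 15.64, 15.58 and 15.62 with dexamethasone and 15.49, 15.51 and 15.46 with ethanol. Every RPS27 value was higher with dexamethasone, by 0.12 on average, but did not pass (adjusted p = 0.0996). It did pass without a filter (adjusted p = 0.00251), with a variance trend (adjusted p = 0.00218) and after cyclic loess (0.23, adjusted p = 0.0112). A second RPS27L probe set also fell, by 0.46 ± 0.118 (adjusted p = 0.00793), and the third differed by -0.21 (adjusted p = 0.105).

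RPL39L, a paralog of RPL39 that is best known from male germ cells, read 8.69, 8.66 and 8.66 with dexamethasone at 24 h and 9.11, 8.98 and 9.21 with ethanol. It fell by 0.43 ± 0.0885 (0.743-fold, adjusted p = 0.00223) with no overlap. RPL39, which lines the peptide tunnel, read 15.46, 15.45 and 15.45 with dexamethasone and 15.43, 15.42 and 15.41 with ethanol, a difference of 0.03 (adjusted p = 0.698). RPL10L read 4.44, 4.38 and 4.39 with dexamethasone and 4.46, 4.48 and 4.32 with ethanol, and its groups overlap (adjusted p = 0.870).

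**Figure D3:**
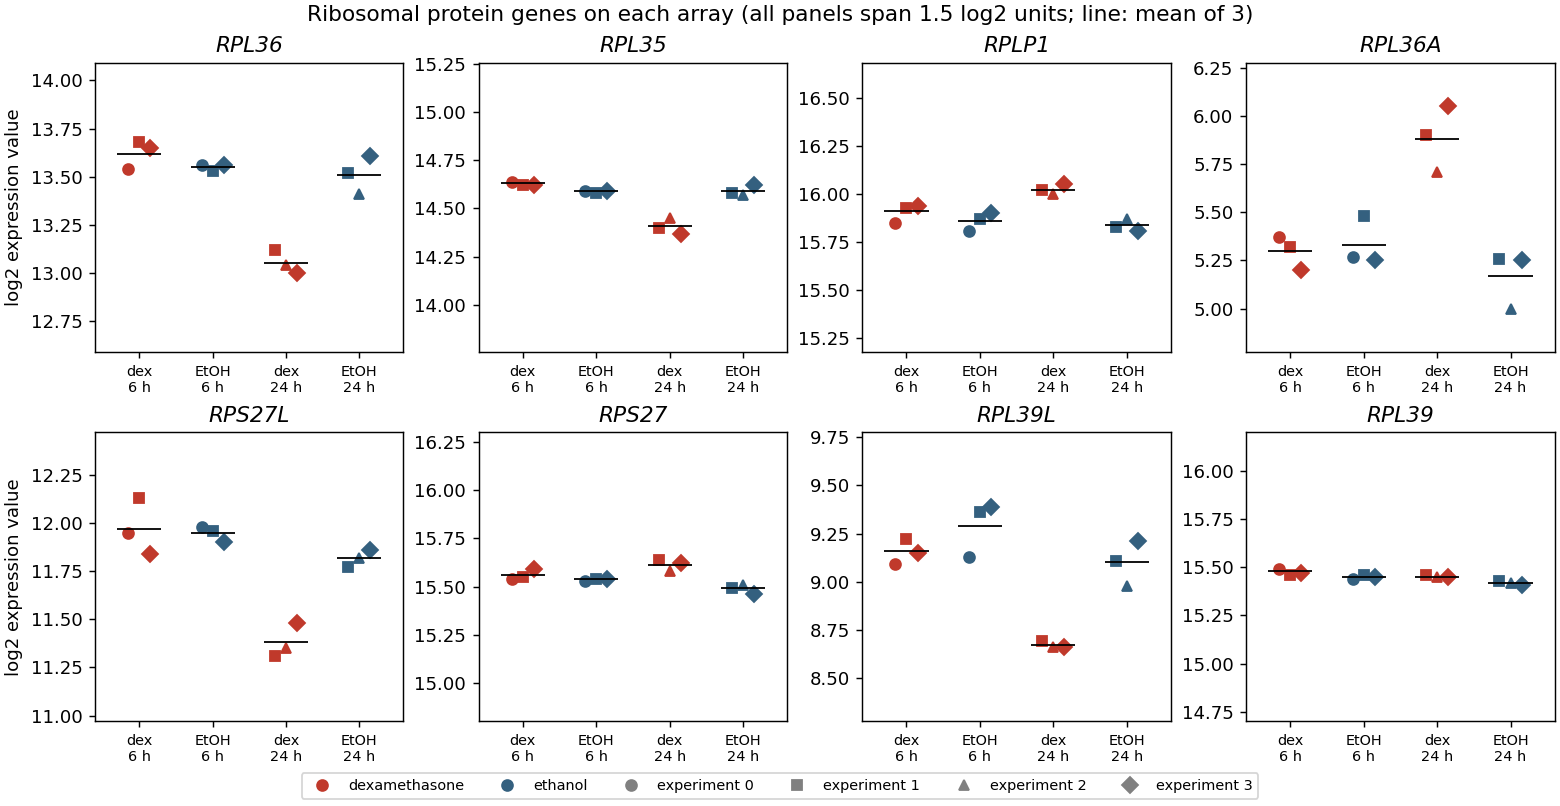
Log2 expression value on each of the 12 arrays for the 6 members that passed at 24 h and for RPS27 and RPL39, the parents of RPS27L and RPL39L. Symbols give the experiment and lines the mean of 3 arrays, and every panel spans 1.5 log2 units. RPL36, RPL35, RPS27L and RPL39L lie lower with dexamethasone at 24 h, RPLP1 and RPL36A lie higher, and the RPL39 groups differ by 0.03.

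Of 6 measured members listed by hand for further roles or links to disease, none passed in limma at 6 h or at 24 h. Of all genes, 6.49% and 52% did. At an unadjusted p under 0.05 in limma there was 1 at 6 h, RPS6, beside 2095 of the 9947 genes tested. At 24 h there were 0, beside 5818 of 9947. RPL11, which binds MDM2, read 14.56, 14.62 and 14.49 with dexamethasone at 24 h and 14.61, 14.66 and 14.67 with ethanol (-0.09, adjusted p = 0.264). RPL22, deleted in some T-ALL, read 13.52, 13.43 and 13.30 with dexamethasone and 13.57, 13.53 and 13.52 with ethanol. The RPL22 groups do not overlap by a narrow margin, and the adjusted p was 0.167. Among its 4 further probe sets, 2 bright ones differed by -0.13 and -0.11, and 2 dimmer ones by 0.17 and 0.26, none of which passed (adjusted p 0.0755 to 0.176). The last of these passed with the experiment as a block (adjusted p = 0.0429). RPS6 differed by -0.05 at 24 h (adjusted p = 0.528). RPS3, which also takes part in DNA repair, differed by 0.04 (adjusted p = 0.588). RPS14, lost in the 5q- syndrome, differed by -0.04 (adjusted p = 0.602), and RPS19, mutated in Diamond-Blackfan anaemia, by 0.06 (adjusted p = 0.467).

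By subunit, 1 of 21 small-subunit members passed at 24 h, RPS27L (4.76%), and 5 of 35 large-subunit members did (14.3%). Of all genes tested 52% passed, and the difference between the subunits was not tested. The median difference was 0.02 for the small subunit and -0.06 for the large one. RPL6 (-0.15) and RPL8 (-0.14), both of the large subunit, came next to the threshold, with adjusted p of 0.0609 and 0.0679. Of the 34 members with a TOP start 2 were higher and 2 lower, with a median of -0.01. Of the 15 without one, 1 was lower, RPS27L, and the median was -0.06. Over all genes tested 23.9% were higher and 28.1% lower.

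The fit takes each gene's variance partly from all genes, whose SD is larger than that of the members. When the variance was allowed to follow the level, 3 members were higher and 13 lower at 24 h (28.6%), where 53.6% of all genes were called. Without the filter on low values 4 were higher and 10 lower of 57 (24.6%), where 24.3% of all 19775 genes were called. There the members' share was not below the background, but that background also holds the genes below the filter. Over this larger set 2202 genes were higher and 2608 lower, against 2378 and 2797 of the 9947 genes in the main fit. The poly-A spike controls averaged 7.35 with dexamethasone and 7.01 with ethanol at 24 h, and 7.33 with dexamethasone and 6.86 with ethanol at 6 h. Scaling to them moved the median of all genes to -0.36 at 24 h and -0.47 at 6 h. The median of the members moved to -0.37 and -0.47. This scaling shifts every probe set of an array by the same amount, so it cannot change the gap between these medians.

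The response at 24 h differed from that at 6 h for 3 of the 56 members (5.36%), where 27.1% of all genes tested differed, 12.3% upward and 14.8% downward. RPL36A responded more positively at 24 h, by 0.75 ± 0.156 (adjusted p = 0.00628). RPL36 responded more negatively, by 0.54 ± 0.105 on the log2 scale (adjusted p = 0.00441), and so did RPS27L, by 0.47 ± 0.12 (adjusted p = 0.0181). For RPL35 (-0.22, adjusted p = 0.0797) and RPL39L (-0.29, adjusted p = 0.12) the difference between the times did not pass. For RPLP2 it was 0.44 (adjusted p = 0.0752). The RPL35 difference passed under 3 alternatives (adjusted p 0.0026 to 0.046), and that of RPLP2 under 5 (adjusted p 0.00854 to 0.047). The RPS27L difference was lost under 4 alternatives (adjusted p 0.0834 to 0.33) and that of RPL36 on the spike scale (-0.41, adjusted p = 0.227). These differences hold the 6 h comparison and with it its batches.

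Ethanol alone was compared between the times as the background of culture. None of the 56 members passed in limma, where 0.432% of all genes tested did. At an unadjusted p under 0.05 there were 3 members, beside 1585 of the 9947 genes tested. The 24 h ethanol arrays read lower than the 6 h ethanol arrays for 49 members and higher for 7. The median difference was -0.05, beside 0 for all genes. At a mean of at least 14, 40 of 47 members read lower (median -0.05). Of the other genes at that level, 63 of 95 did (median -0.03). The 2 sets of ethanol arrays differ in the codes read as batches, so time and batch cannot be told apart here.

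Within the 24 h experiments the members' median difference between dexamethasone and ethanol was -0.01, -0.04 and -0.03 in experiments 1, 2 and 3. At 6 h it was -0.01, -0.02 and 0.02 in experiments 0, 1 and 3.

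All probe sets of the 57 genes were then counted, 34 genes having several and 23 having 1. Of the 118 probe sets 104 were tested, and at 24 h 4 were higher and 15 lower with dexamethasone (18.3%), where 47.3% of all tested probe sets were called, 22.8% higher and 24.5% lower. Among the 69 with a mean of at least 12, 1 was higher and 3 lower (5.8%), where 50.3% of all such probe sets were called. Among the 35 dimmer ones 3 were higher and 12 lower (42.9%), where 47.1% of all such probe sets were called. The share of calls among the dim probe sets of ribosomal protein genes was thus near the background. At 6 h 1 was higher and 1 lower, where 6.2% of all were called.

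The largest fall was on a dim probe set of RPL37A, with 6.41, 6.42 and 6.25 with dexamethasone at 24 h and 7.46, 7.82 and 7.84 with ethanol (-1.35 ± 0.14, adjusted p = 1.89e-05). The bright probe set of RPL37A, with a mean of 15.62, differed by 0.04. A dim probe set of RPS16 read 6.41, 6.93 and 6.51 with dexamethasone and 7.40, 7.29 and 7.17 with ethanol (-0.67 ± 0.139, adjusted p = 0.0024), and the bright one, with a mean of 15.67, differed by 0.02. Dim probe sets of RPL7 (-1.25) and RPS24 (-0.99) fell as well. RPL31 was the 1 gene whose probe sets were called in opposite directions. One of them read 9.87, 9.67 and 10.06 with dexamethasone and 9.46, 9.34 and 9.36 with ethanol, and rose by 0.48 ± 0.109 (adjusted p = 0.00422). Another read 8.74, 8.33 and 8.47 with dexamethasone and 9.10, 8.94 and 9.14 with ethanol, and fell by 0.55 ± 0.112 (adjusted p = 0.00214). The brightest probe set of RPL31, with a mean of 14.82, differed by 0.06. What transcripts the dim probe sets bind is not given in the sources used here.

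**Figure D4:**
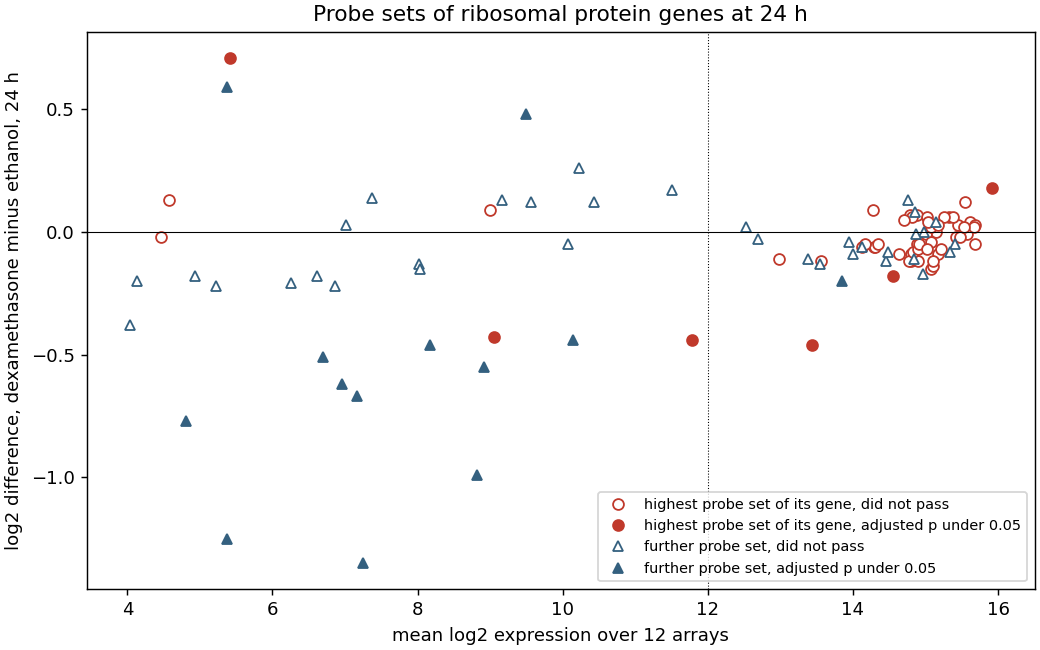
Log2 difference between dexamethasone and ethanol at 24 h against mean log2 expression over the 12 arrays for the 104 tested probe sets of ribosomal protein genes. Circles are the probe sets that stand for a gene, triangles are further probe sets, and filled symbols passed an adjusted p under 0.05. Right of the dotted line at 12 the points lie near 0, with 4 of 69 filled, and left of it they scatter, with 15 of 35 filled.

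Probe sets that carry a ribosomal protein symbol together with another symbol were counted but not named. Of 59 tested, none passed at 6 h, where 6.2% of all tested probe sets were called. At 24 h 4 were higher and 7 lower (18.6%), where 47.3% of all were called. Among the 47 with a mean of at least 12, 3 were higher and 3 lower (12.8%), where 50.3% of all such probe sets were called.

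Genes close to the family but outside its naming rule behaved differently from each other. FAU, whose product is cleaved to a small-subunit protein, averaged 14.12 with dexamethasone and 14.20 with ethanol at 24 h, and did not pass (adjusted p = 0.332). RACK1 was not analysed here. The 3 paralogs with compound symbols all fell at 24 h, where 28.1% of all genes tested were lower. None of the 3 passed at 6 h, where 6.49% of all did. RPL22L1, the paralog of RPL22, averaged 12.25 with dexamethasone and 12.99 with ethanol (-0.74 ± 0.101, adjusted p = 0.000134). RPL7L1, which acts in ribosome assembly, averaged 12.28 with dexamethasone and 12.89 with ethanol (-0.61 ± 0.0862, adjusted p = 0.000168), and RPL26L1 10.57 with dexamethasone and 10.82 with ethanol (-0.24 ± 0.067, adjusted p = 0.0117). With the experiment as a block RPL7L1 also passed at 6 h (adjusted p = 0.0333).

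Chaperones and importers that escort single ribosomal proteins fell at 24 h, 7 of 8 tested (87.5%, beside 28.1% of all genes lower), with a median of -0.63. This list, like those below, was chosen with earlier results of these data known, so its share is a description and no test. PDCD2L, a chaperone of RPS2, averaged 6.54 with dexamethasone and 8.45 with ethanol (-1.91 ± 0.102, adjusted p = 1.58e-07). BCCIP, a chaperone of RPL23, fell by 1.03 ± 0.107 (adjusted p = 1.89e-05), and LTV1, which loads RPS3, by 0.91 ± 0.0995 (adjusted p = 2.73e-05). TSR2, the chaperone of RPS26, differed by -0.15 (adjusted p = 0.242). At 6 h PDCD2L (-0.80, adjusted p = 0.00106) and LTV1 (-0.38, adjusted p = 0.0495) had already fallen. GRWD1, a chaperone of RPL3, did not pass at 6 h (-0.40, adjusted p = 0.0996), but did with the experiment as a block (adjusted p = 0.0478).

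Other genes listed as TOP messenger RNAs were split at 24 h. Of 15 tested, 5 rose, 2 fell and 8 did not pass (46.7% called, beside 52% of all genes), with a median of 0.09. A promoter entry was at hand for 9 of the 15, all with a TOP start, and the start of the others was not examined. With the experiment as a block EIF3H, a subunit of an initiation factor, passed too (0.20, adjusted p = 0.0359 against 0.0509). EIF3F, a subunit of an initiation factor, averaged 13.51 with dexamethasone and 13.06 with ethanol (0.45 ± 0.0758, adjusted p = 0.000565). NPM1, a nucleolar protein of ribosome assembly, averaged 14.41 with dexamethasone and 14.91 with ethanol (-0.50 ± 0.0646, adjusted p = 9.46e-05), and NACA, which meets nascent chains at the tunnel exit, 14.45 with dexamethasone and 14.71 with ethanol (adjusted p = 0.00544). None of the 15 passed at 6 h in limma, where 6.49% of all genes tested did. At an unadjusted p under 0.05 there was 1 of the 15, beside 2095 of the 9947 genes tested. The lowest adjusted p was 0.24 for EEF2, an elongation factor (0.17). TPT1 (0.13, adjusted p = 0.32) and PABPC1 (0.10, adjusted p = 0.411) came next.

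Genes that govern transcription or translation of the family changed at 24 h in 5 of 7 cases (71.4%, beside 52% of all genes), 1 higher and 4 lower, with a median of -0.61. They too were listed with earlier results known, so this share is no test. MYC, which already passed at 6 h, averaged 12.39 with dexamethasone and 13.38 with ethanol at 6 h (-0.99 ± 0.104, adjusted p = 0.000262), and 10.46 with dexamethasone and 13.18 with ethanol at 24 h (-2.72 ± 0.104, adjusted p = 1.6e-08). EIF4EBP1, which blocks cap-dependent translation when mTOR is inactive, averaged 8.17 with dexamethasone and 9.92 with ethanol at 24 h (adjusted p = 7.17e-06). LARP1 averaged 11.43 with dexamethasone and 12.44 with ethanol at 24 h (adjusted p = 7.38e-06), and at 6 h it differed by -0.30 (adjusted p = 0.082; 0.0240 with the experiment as a block). RPTOR, the mTOR partner that recruits substrates, fell by 0.61 at 24 h. MTOR was the 1 of these 7 genes that rose, by 0.23 (adjusted p = 0.0410; 0.0517 with the experiment as a block). RPS6KB1, an S6 kinase, differed by -0.21 (adjusted p = 0.0588; 0.0467 with the experiment as a block). At 6 h MYC alone passed, and RPTOR differed by 0.21 (adjusted p = 0.313).

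MDM2, to which RPL11 binds, averaged 9.49 with dexamethasone and 9.98 with ethanol at 24 h and fell by 0.49 ± 0.0845 (adjusted p = 0.000663). At 6 h it differed by -0.19 (adjusted p = 0.24). CDKN1A, an inhibitor of cyclin-dependent kinases, stayed below the filter at 2.44 to 2.59 on all arrays.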

How the data were processed

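RNA from 12 cultures was hybridized to 12 one-colour arrays, and 1 table of log2 values per probe set was used. Per the submitters' processing notes, the authors ran GCRMA under R 2.6 to obtain the deposited log2 values. The settings were not stated in the labels. By default it corrects background by probe sequence, equalizes quantiles across arrays, which hides a shift shared by all genes, and summarizes the probes of a set. Depth here is signal over background, and the number of arrays limits the precision.

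Gene symbols came from the platform annotation. The 62 control probe sets were left out. A group-means model over all 12 arrays, with 8 residual degrees of freedom, was fitted with limma 3.58.1 in R 4.3.3, with empirical Bayes moderation and Benjamini-Hochberg adjustment over 23265 probe sets (filter: log2 of 4 on 3 arrays). Scripts were tested on simulated data. Figures were drawn with matplotlib 3.10.9.

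Experiment numbers came from the sample titles. With group means removed, same-numbered arrays correlated at r = 0.417, 0.627 and 0.609 (6 h) and r = 0.286, 0.238 and 0.424 (24 h). The highest value of any other pair was 0.05, so the numbers pair the samples. A fit with the experiment as a block was an alternative.

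Named were, per time, up to 8 called members in each direction, and up to 4 each way for the change of response with time. Paralogs and their parents, members with further roles or links to disease, and members with opposed probe sets were named too. So were the 3 brightest and 3 dimmest members, and per further list the genes with the 3 smallest p. Other genes named were chosen after their values were seen. Members and lists were chosen with earlier results of these data known. Other alternatives were filters, scalings, variance models, the probe set standing for a gene, and leaving out each array.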

Additional observations from a re-analysis of the deposited data

Results flagged for a closer look

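For 3 ribosomal protein genes the response to dexamethasone at 24 h differed from that at 6 h by the interaction test in limma. The 24 h minus 6 h response was 0.75 for RPL36A, -0.54 for RPL36 and -0.47 for RPS27L. The RPS27L difference did not pass under 4 alternatives (adjusted p 0.0834 to 0.33), and that of RPL36 did not on the scale of the poly-A spikes (adjusted p = 0.227). In all 3 experiments at 24 h each of these genes differed in the direction of its mean. With the array codes read as batches, the 6 h arrays lay in 1 batch per treatment and the 24 h arrays in another. What the codes stand for is not stated, and the part of these batches in the differences was not tested. Groups of 3 arrays were too small for a check of single outlying arrays.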

How the results depend on the processing

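The replicate block left the counts of members at 0 higher and 0 lower at 6 h, 2 higher and 4 lower at 24 h, and 1 higher and 2 lower for the difference between the times, while calls over all genes came to 13.6%, 61.3% and 38.4%. It changed no call of a member. Without a filter 1 member was higher and 2 lower at 6 h (5.26%, beside 2.82% of all genes), and 4 were higher and 10 lower at 24 h (24.6%, beside 24.3%). The low share of calls at 24 h was not seen there, but these backgrounds also hold the genes below the filter. Also without a filter, 1 member was higher and 4 were lower for the difference between the times (8.77%, beside 11.5% of all genes). For ethanol at 24 h against 6 h 1 was lower (1.75%, beside 0.207%). A filter at 6 left 1 member higher and 4 lower at 24 h (9.43%, beside 57% of all genes). For the difference it left 0 higher and 2 lower (3.77%, beside 31.1%). Median centring gave member medians of -0.03 at 6 h, 0.04 for the difference and -0.08 for ethanol. The medians of all genes were -0.03, 0.03 and -0.03. For the difference 2 members were higher and 2 lower (7.14%, beside 24.1% of all genes). Cyclic loess gave 7 members higher and 3 lower at 24 h (17.9%, beside 52.8%) with a median of 0.05, beside 0 for all genes. For the difference 2 were higher and 2 lower (7.14%, beside 27.7%), with a median of 0.09 beside 0.01. Scaling to the poly-A spikes gave 56 members lower at 6 h (100%, beside 69.1% of all genes). Their median was -0.47, which was also that of all genes. At 24 h it gave 0 higher and 29 lower (51.8%, where 56.7% of all genes were called) with a median of -0.37. For the difference it gave 1 higher and 0 lower (1.79%, beside 15.6%), with a median of 0.12 beside 0.11 for all genes. The median for ethanol was -0.2, beside -0.14. On that scale, which put the median of all genes at -0.36, RPLP1 reversed to -0.15 at 24 h. A variance trend gave 2 members lower at 6 h (3.57%, beside 7.87% of all genes). At 24 h it gave 3 higher and 13 lower (28.6%, beside 53.6%). For the difference it gave 1 higher and 5 lower (10.7%, beside 29.3%). With only the 6 arrays compared 1 member was higher and 3 were lower at 24 h (7.14%, beside 52.7% of all genes).

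The probe set that stood for a gene mattered as well. The mean of a gene's probe sets gave 1 member lower at 6 h (1.79%, beside 8.24% of all genes). At 24 h 3 were higher and 14 lower (30.4%, beside 54.7%) with a median of -0.07, beside -0.02 for all genes. For the difference 2 were higher and 4 lower (10.7%, beside 29.8%) with a median of -0.04, beside -0.01. For ethanol 1 was lower (1.79%, beside 0.734%). Of the 27 members with a probe set named by a plain _at ending, 1 was lower at 6 h (3.7%, beside 6.7% of all genes). At 24 h 2 were higher and 8 lower (37%, beside 51.2%), and 1 was lower for ethanol (3.7%, beside 0.43%). The medians were -0.04 at 6 h, -0.14 at 24 h, -0.08 for the difference and -0.1 for ethanol. Those of all genes were -0.01, -0.02, 0 and 0. The dimmest tested probe set gave 1 member lower at 6 h (1.79%, beside 6.06% of all genes). At 24 h 3 were higher and 10 lower (23.2%, beside 45.9%) with a median of -0.08, beside -0.03 for all genes. For the difference 1 was higher and 6 lower (12.5%, beside 22.9%) with a median of -0.07, beside -0.02. For ethanol 1 was lower (1.79%, beside 0.493%). RPS27L fell by 0.21 under the plain and the dimmest choice and did not pass at 24 h. The cause of these changes was not tested. Leaving out each array in turn gave 1 to 2 members higher and 3 to 4 lower at 24 h. The medians lay from -0.04 to -0.01, and 44.4 to 52.8% of all genes were called. For the difference 1 to 2 members were higher and 2 lower, where 21.3 to 27.5% of all genes were called. RPL36 and RPL39L passed at 24 h under every alternative tried. The readings of most members lie near the top of the array's range, and the part of this in the results was not tested.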
